A study of Mus musculus with 10 samples.

Results

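The matrix metalloproteases (MMPs), the ADAMTS metalloproteases and the proteins that hold them in check or set them off were followed in sorted cells of mouse malignant peripheral nerve sheath tumours (MPNST), sarcomas of the Schwann cell lineage. The 41 genes are a list by name, out of 46517 counted genes: 9 MMPs grouped as secreted, 5 membrane-type MMPs, 4 tissue inhibitors of metalloproteases (Timp1 to Timp4) with the membrane-anchored inhibitor Reck, 18 ADAMTS genes, and 4 genes of plasminogen activation (Plau, Plat, Plaur and Serpine2). All 41 had at least 1 read. A filter on low counts kept 35 of them for testing and left out Mmp24, Timp4, Adamts8, Adamts16, Adamts18 and Adamts19, which are given by their levels.

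MMPs are zinc proteases that cut collagens and other matrix proteins. They are made as inactive proenzymes, the membrane-type MMPs act at the cell surface, and TIMPs block the active site of the mature enzyme. Mmp14 at the cell surface binds Timp2 and, through it, activates the proenzyme of Mmp2. ADAMTS enzymes carry thrombospondin repeats, and different subgroups cut proteoglycans such as versican and aggrecan or trim the amino ends of procollagens. Plau (urokinase) and Plat (tissue plasminogen activator) turn plasminogen into plasmin, which can in turn activate several MMPs.

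RNA-seq libraries came from 5 MPNST allograft models, lettered A to E, with 1 library of GFP+ and 1 of GFP- cells from each, 10 in all. The series' title describes the sort as one of tumour cells that carry CGD transgene expression, read out as GFP, from cells that lack it. What the letters CGD stand for, the promoter of the transgene, the genotype of the tumours, the host strain, the age of the animals and whether a model is 1 animal are not stated in the labels used, so p-values measure only the spread between these samples. The labels' protocol records a collagenase digestion of the fresh allografts, a flow cytometry gate that dropped wildtype and dead cells, and total RNA from each sorted population. GFP reads were not analysed here, so the sort has no check of its own in these counts.

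The libraries held 15978673 to 22082207 reads in genes. The GFP+ library of model D stood apart from the others: it held 102.6 CPM (counts scaled to 1000000 reads in genes) of Xist, the RNA of the inactive X chromosome, together with 42.2 CPM of the Y-linked gene Ddx3y. The GFP- library of the same model held 2.82 CPM of Xist and 64.1 CPM of Ddx3y. In the other 8 libraries 1 of these genes was above 40 CPM and the other at most at 1.35 CPM. The main counts and the log2 differences of part of the genes are therefore also given without pair D. Of the Schwann lineage markers, all 7 tested had higher values in GFP+ cells at an unadjusted p under 0.05, against 5.5% of all genes. At an adjusted p under 0.05 there were 0. The summed level of the 8 listed was 63.2 to 341 CPM in the GFP+ and 18.7 to 116 CPM in the GFP- libraries. These ranges overlapped, and the sum was higher in GFP+ cells in 5 of 5 pairs. Gap43 was the most abundant of them, with means of 84.9 CPM in GFP+ and 52.0 CPM in GFP- libraries. Fibroblast markers summed to 2036 to 10915 CPM in GFP+ and 3492 to 10453 CPM in GFP- libraries. They had lower fitted values in GFP+ cells in 6 of 7 genes, against 7088 of all 13986 genes. Of the 7, 1 (Pdgfra) was lower at an unadjusted p under 0.05, against 3.49% of all genes. Markers of pericytes and smooth muscle had lower fitted values in 4 of 4 tested genes, with 1 (Rgs5) at that p. Acta2, 1 of the 4, differed by -0.12, with means of 51.6 CPM in GFP+ and 44.4 CPM in GFP- libraries. These markers summed to 136 to 518 CPM in GFP+ and 139.5 to 949 CPM in GFP- libraries. Over the 10 libraries Pdgfra stood at 659 to 2470, Dcn at 68.6 to 10149 and Pdgfrb at 86.3 to 780.4 CPM. The leukocyte marker Ptprc did not exceed 0.453 CPM and Adgre1, a macrophage marker, 0.213 CPM, while Csf1r reached 1.70 CPM and Cd68 6.07 to 16.6 CPM. The part of these marker differences in the protease results was not tested.

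Promoter sequences are shown for the 5 genes that bring out 2 kinds of promoter among these proteases, the inducible collagenase and stromelysin genes of chromosome 9 and the GC-rich promoters of Mmp15 and Plaur. The RefSeq promoter table used here (GRCm38.p6) was matched to 25 of the 41 genes, on which the motif shares rest, and each line holds the 250 bases before that start, 5′ to 3′ on the strand of the gene. Capitals mark AP-1 sites (TGANTCA, the binding motif of Fos and Jun proteins), TATA boxes (TATAAA) and GC boxes (GGGCGG), each searched on both strands. All 5 genes lie on the plus strand.
Mmp10, chr9:7502092-7502341: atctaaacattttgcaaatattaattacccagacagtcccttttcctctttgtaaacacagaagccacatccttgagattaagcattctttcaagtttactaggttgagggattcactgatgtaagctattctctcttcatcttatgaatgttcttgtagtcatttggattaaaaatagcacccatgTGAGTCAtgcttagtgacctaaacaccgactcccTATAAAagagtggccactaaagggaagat
Mmp3, chr9:7445572-7445821: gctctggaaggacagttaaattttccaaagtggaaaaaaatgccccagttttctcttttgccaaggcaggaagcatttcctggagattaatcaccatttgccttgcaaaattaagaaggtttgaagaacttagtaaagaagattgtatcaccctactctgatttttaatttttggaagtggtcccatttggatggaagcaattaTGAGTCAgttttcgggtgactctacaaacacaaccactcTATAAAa
Mmp13, chr9:7272264-7272513: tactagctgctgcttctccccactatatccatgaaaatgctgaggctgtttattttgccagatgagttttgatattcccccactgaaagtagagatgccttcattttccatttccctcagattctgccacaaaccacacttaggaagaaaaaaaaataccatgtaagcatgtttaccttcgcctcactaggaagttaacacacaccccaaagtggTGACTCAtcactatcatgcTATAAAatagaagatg
Mmp15, chr8:95352046-95352295: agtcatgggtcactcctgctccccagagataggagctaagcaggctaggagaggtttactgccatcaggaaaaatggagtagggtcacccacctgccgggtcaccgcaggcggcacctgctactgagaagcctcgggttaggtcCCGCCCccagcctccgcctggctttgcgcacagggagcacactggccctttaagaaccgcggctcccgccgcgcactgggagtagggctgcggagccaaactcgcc
Plaur, chr7:24462233-24462482: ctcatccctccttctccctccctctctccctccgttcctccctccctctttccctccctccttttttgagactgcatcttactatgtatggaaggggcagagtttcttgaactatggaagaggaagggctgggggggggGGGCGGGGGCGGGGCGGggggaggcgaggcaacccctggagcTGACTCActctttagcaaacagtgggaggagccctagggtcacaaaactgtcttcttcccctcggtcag
The 3 chromosome 9 genes each paired an AP-1 site with a TATA box downstream of it. The first base of the AP-1 site lay at -63 in Mmp10, -46 in Mmp3 and -35 in Mmp13, counted back from the RefSeq start, and that of the TATA box at -29, -7 and -16. Plaur held an AP-1 site at -69 and 3 GC boxes from -111 on, of which the second and the third share 1 base. In Mmp15 the window held 1 GC box, at -106 and read on the opposite strand, and neither other motif. Base composition is part of how these 5 genes were chosen and is not a separate result. G and C made up 37.2%, 37.6% and 40.4% of the bases in Mmp10, Mmp3 and Mmp13. They made up 63.6% in Mmp15 and 59.6% in Plaur. Over the 25 genes with a start, 4 held an AP-1 site (Mmp3, Mmp10, Mmp13 and Plaur) and 4 a TATA box (Adamts1, Mmp3, Mmp10 and Mmp13), against 6.75% and 12.4% of 32851 mouse promoters of the same length. GC boxes stood in 18 of the 25 and in 32.7% of all promoters. A gene was counted if any of its promoters in the table held the motif, while the percentages are of single promoters. The counts and the percentages are therefore not like measures. A match of letters is a description and not a site of binding.

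Levels of the 41 genes spanned a wide range. To set genes side by side, levels were taken per kilobase of a gene's annotated exons together, and the transcripts present may be shorter. Timp2 led with a mean of 432 (174 to 751 over the 10 libraries) CPM per kb. Mmp2, a gelatinase, followed at 415 (178 to 938 over the 10 libraries) CPM per kb and Mmp14, its membrane-bound activator, at 224 (141 to 277 over the 10 libraries) CPM per kb. Timp1 at 173 (114 to 204 over the 10 libraries), Timp3 at 157 (33.8 to 537 over the 10 libraries) and Adamts1, a versican-cleaving enzyme, at 88.0 (25.7 to 152 over the 10 libraries) CPM per kb came next. The ranges of neighbours in this order overlapped throughout, so the order within the top 6 is that of the means only. It also rests on the exon length: Timp1 came before Timp3 at mean levels of 154 and 1282 CPM. Mmp3 stood at 49.2 and Plat at 31.4 CPM per kb, followed by Adamts7 at 27.0 CPM per kb. At the low end, Timp4, Adamts19 and Mmp24 were below 0.02 CPM per kb with 21, 47 and 14 reads in all 10 libraries together.

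**Figure D1:**
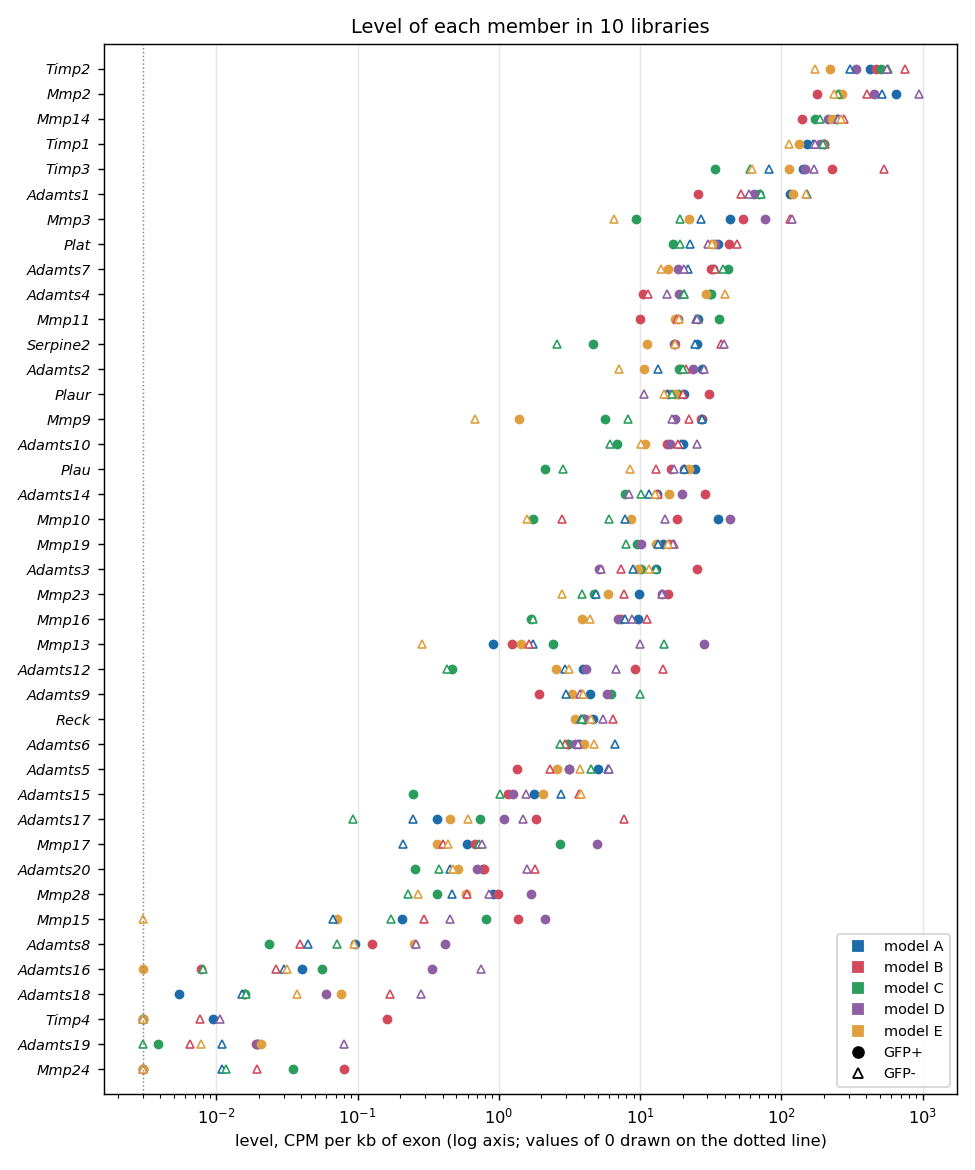
Level of each of the 41 genes in CPM per kb of exon (log axis, values of 0 on the dotted line) in 10 libraries, ordered by mean; colours are the 5 models, filled circles GFP+ and open triangles GFP- cells. Timp2 and Mmp2 are at the top with means of 432 and 415 CPM per kb, and Timp4, Adamts19 and Mmp24 are at the bottom.

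Mmp2 and Mmp14 together made up 67.7% to 90.6% of the summed level per kb of the 14 MMPs in every library. Timp1, Timp2 and Timp3 made up all but a trace of the summed TIMP level. The ratio of the summed TIMP level to the summed MMP level, both per kb, was 0.680 in GFP+ and 0.627 in GFP- cells of model A, 1.90 and 1.70 in B, 1.48 and 1.57 in C, 0.753 and 0.635 in D, and 0.813 and 0.634 in E. It lay above 1 in both populations of models B and C and below 1 in both populations of models A, D and E. Within a model the populations differed less than these 2 sets of models did, and the ratio was higher in GFP+ cells in 4 of 5 pairs.

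Between GFP+ and GFP- cells of the same model, Mmp15, Mmp17, Mmp10, Mmp28, Mmp23 and Plaur had higher values in GFP+ cells, and Adamts5 and Adamts15 lower ones, at an unadjusted p under 0.05. Of the 5 most abundant genes per kb, Mmp14 was lower in GFP+ cells in 5 of 5 pairs, and Timp2, Mmp2, Timp1 and Timp3 had no common direction over the pairs. In edgeR's quasi-likelihood test with the model as a block, 0 of the 35 tested genes passed a Benjamini-Hochberg adjusted p of 0.05, as did 0 of all 13986 genes (0%). At an unadjusted p under 0.05 there were 8 of the 35, against 8.99% of all genes tested. Of these, 6 were higher (5.5% of all genes) and 2 lower (3.49% of all genes) in GFP+ cells. A count of 3 genes was higher in 5 of 5 pairs (Mmp15, Mmp28 and Plaur), against 5.11% of all genes, and 3 were lower in 5 of 5 pairs (Adamts5, Adamts15 and Mmp14), against 4.66%. The median log2 difference of the 35 was -0.14, with 15 higher and 20 lower. That of all 13986 genes was -0.0028, with 6898 higher and 7088 lower. The median size of the difference without regard to sign was 0.27 for the 35, against 0.12 for all genes. Their median mean level was 54.9 against 25.5 CPM. In bulk RNA, fewer cells of a type and less RNA per cell cannot be told apart.

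The verdict on 5 of these genes depended on the tool. DESeq2 with the same block gave 4 of the 35 an adjusted p under 0.05, against 1.42% of the genes it adjusted: Mmp15 (adjusted p = 1.51e-05), Adamts15 (0.00367), Adamts5 (0.00523) and Mmp17 (0.0415). The edgeR likelihood-ratio test also called 4, against 1.47% of all genes: Mmp15 (adjusted p = 2.37e-11), Adamts5 (0.00223), Adamts15 (0.00607) and Mmp28 (0.0120). Quasi-likelihood without the filter on low counts called Mmp15 alone among the 41 (adjusted p = 0.0168), against 0.182% of all genes. Leaving out pair D kept 8 genes at an unadjusted p under 0.05, against 5.73% of all genes: Mmp10 was no longer among them and Adamts1 was. Leaving out pair A, B, C or E gave 12, 7, 12 and 7 genes, against 10.5%, 5.69%, 9.71% and 7.82% of all genes. The filter kept 37 of the 41 genes without pair A or C and 35 without pair B or E. The split by direction moved with the pairs: without pair A, 5 were higher (5.82% of all genes) and 7 lower (4.65%), and without pair C, 9 were higher (6.04%) and 3 lower (3.68%). Without the model as a block there was 1, Mmp17, against 1.36%.

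**Figure D2:**
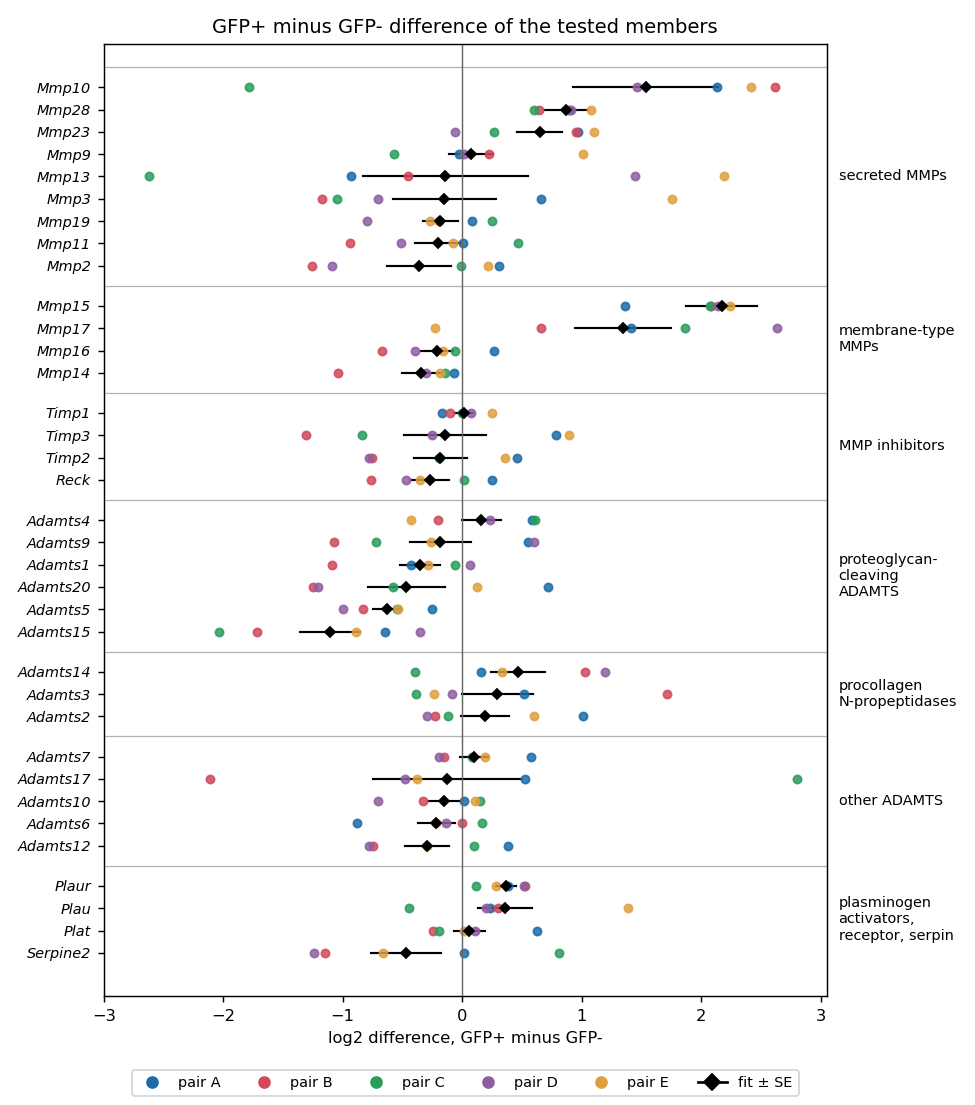
Log2 difference of GFP+ minus GFP- cells for the 35 tested genes, grouped by role; coloured points are the 5 pairs and black diamonds the fitted value ± SE. Mmp15 lies to the right of 0 in all 5 pairs (fit 2.17) and Adamts15 to the left in all 5 (fit -1.10), while Mmp13 and Adamts17 have pairs far out on both sides.

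Among the secreted MMPs, 3 of 9 had higher values in GFP+ cells at an unadjusted p under 0.05 (Mmp28, Mmp23 and Mmp10) and 0 lower ones, against the 5.5% and 3.49% of all genes. Mmp10 (stromelysin 2, chr9:7502352-7510240, plus strand), which cuts proteoglycans and activates other proMMPs, stood at 60.9, 31.5, 2.99, 74.3 and 14.8 CPM in the GFP+ libraries of models A to E and 13.5, 4.80, 10.4, 25.8 and 2.71 CPM in the GFP- libraries. It was higher in GFP+ cells in pairs A, B, D and E and lower in pair C, and the populations overlapped. Means over models were 36.9 ± 30.2 (SD, n = 5) for the GFP+ and 11.5 ± 9.13 (SD, n = 5) for the GFP- libraries, in CPM. The log2 difference was 1.53 (SE 0.61; unadjusted p = 0.0371, adjusted p = 0.520 in edgeR's quasi-likelihood test), 1.56 without pair D and 2.15 without pair C. The unadjusted p passed 0.05 only with all pairs or without pair C.

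Mmp28 (epilysin), a secreted MMP first known from epithelia, was low but uniform in direction. Its levels were 3.50, 3.83, 1.41, 6.58 and 2.27 CPM in GFP+ cells (A to E) and 1.80, 2.31, 0.881, 3.32 and 1.03 CPM in GFP- cells. GFP+ cells were higher in every pair, with overlap between models. Its log2 difference was 0.87 (SE 0.18; unadjusted p = 0.00174, adjusted p = 0.329), and 0.85 without pair D. Mmp23, which is anchored in the membrane by its amino end and released by cleavage, stood at 22.8, 36.7, 11.0, 33.4 and 13.9 CPM in GFP+ cells (A to E) and 11.4, 18.1, 9.03, 33.5 and 6.51 CPM in GFP- cells. GFP+ cells held more in pairs A, B, C and E, and the pair D values were equal within 1%. In the fit the difference was 0.65 on the log2 scale (SE 0.19; unadjusted p = 0.0106, adjusted p = 0.417), and 0.83 without pair D.

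Mmp2, the protease with the highest mean level per kb among the 41 genes, stood at 2179, 600.0, 861, 1539 and 912 CPM in the GFP+ libraries of models A to E and 1727, 1365, 853, 3163 and 791 CPM in the GFP- libraries. Pairs B and D were lower in GFP+ cells, pairs A and E higher, and pair C about level. Fitted over all pairs, it differed by -0.36 on the log2 scale (SE 0.27, adjusted p = 0.731), and -0.17 without pair D. Mmp9, the other gelatinase, stood at 97.0, 95.9, 20.0, 62.2 and 4.87 CPM in GFP+ cells (A to E) and 97.0, 78.2, 29.3, 59.5 and 2.39 CPM in GFP- cells. Models A and B were high in both populations and model E low in both, and the populations did not separate (log2 difference 0.07, SE 0.18, adjusted p = 0.948). The stromelysin Mmp3 and the collagenase Mmp13 share with Mmp10 the order of an AP-1 site before a TATA box, though not the spacing. Their log2 differences were -0.15 (SE 0.43) and -0.14 (SE 0.69). Mmp3 had the direction of Mmp10 in pairs A, C and E and Mmp13 in pairs C, D and E. Whether they differ from Mmp10 was not tested. Mmp11 and Mmp19 differed by -0.21 (SE 0.19) and -0.19 (SE 0.15).

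Of the membrane-type MMPs, Mmp15 and Mmp17 were higher in GFP+ cells at an unadjusted p under 0.05, and Mmp14 was lower in every pair without reaching it. Mmp15 (MT2-MMP, chr8:95352268-95375080, plus strand), a collagenase anchored by a transmembrane segment, stood at 1.11, 7.40, 4.34, 11.5 and 0.386 CPM in the GFP+ libraries of models A to E and 0.360, 1.58, 0.936, 2.44 and 0 CPM in the GFP- libraries. Behind these were 20, 139, 80, 210 and 8 reads in GFP+ and 7, 35, 17, 39 and 0 in GFP- cells, where 0 reads allow up to 3 by counting error. GFP+ cells were higher in all 5 pairs. The GFP+ libraries of models A and E nevertheless lay below the GFP- libraries of B and D, so the populations overlapped across models. Means were 4.95 ± 4.61 (SD, n = 5) for the GFP+ and 1.06 ± 0.976 (SD, n = 5) for the GFP- libraries, in CPM. The log2 difference was 2.17 (SE 0.30; unadjusted p = 0.000111, adjusted p = 0.199), and leaving out any 1 pair gave 2.05 to 2.26, with 2.17 without pair D. The Schwann lineage factor Sox10 stood at 0.111, 17.1, 52.6, 112 and 0.434 CPM in GFP+ cells (A to E) and 0.0514, 1.63, 7.65, 3.69 and 0 CPM in GFP- cells. Both genes had their highest values in the GFP+ library of model D and their lowest in the GFP- library of model E. That library of model D is the one that stood apart in Xist and Ddx3y. The order between these ends differed: in GFP+ cells Mmp15 was higher in B than in C, and Sox10 higher in C than in B. A link between Mmp15 and Sox10 was not tested.

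Mmp17 (MT4-MMP), which is held in the membrane by a GPI anchor, stood at 3.95, 4.47, 18.0, 32.8 and 2.41 CPM in the GFP+ libraries of models A to E and 1.39, 2.67, 4.79, 5.01 and 2.87 CPM in the GFP- libraries. It was higher in GFP+ cells in pairs A to D and lower in pair E, and the GFP+ libraries of C and D exceeded all GFP- libraries. Over all pairs the log2 difference came to 1.35 (SE 0.40; unadjusted p = 0.0110, adjusted p = 0.418), and 0.97 without pair D. Mmp14 (MT1-MMP, chr14:54431612-54445364, plus strand), the cell-surface collagenase, stood at 1469.8, 841, 1030.4, 1268 and 1366 CPM in the GFP+ libraries of models A to E and 1512, 1652, 1122, 1505 and 1572 CPM in the GFP- libraries. GFP+ cells held less in all 5 pairs, by a log2 difference from -0.07 in pair A to -1.04 in pair B. The fitted difference was -0.35 (SE 0.16; unadjusted p = 0.0655, adjusted p = 0.583), -0.36 without pair D and -0.18 without pair B. Mmp16 (MT3-MMP) stood at 83.2, 63.8, 14.7, 60.0 and 33.6 CPM in GFP+ cells (A to E) and 68.0, 97.0, 15.0, 76.2 and 38.0 CPM in GFP- cells. Model C was low in both populations, and the populations differed by -0.21 on the log2 scale (SE 0.13, adjusted p = 0.684). Mmp24 had 14 reads in all, at most 7 in 1 library.

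**Figure D3:**
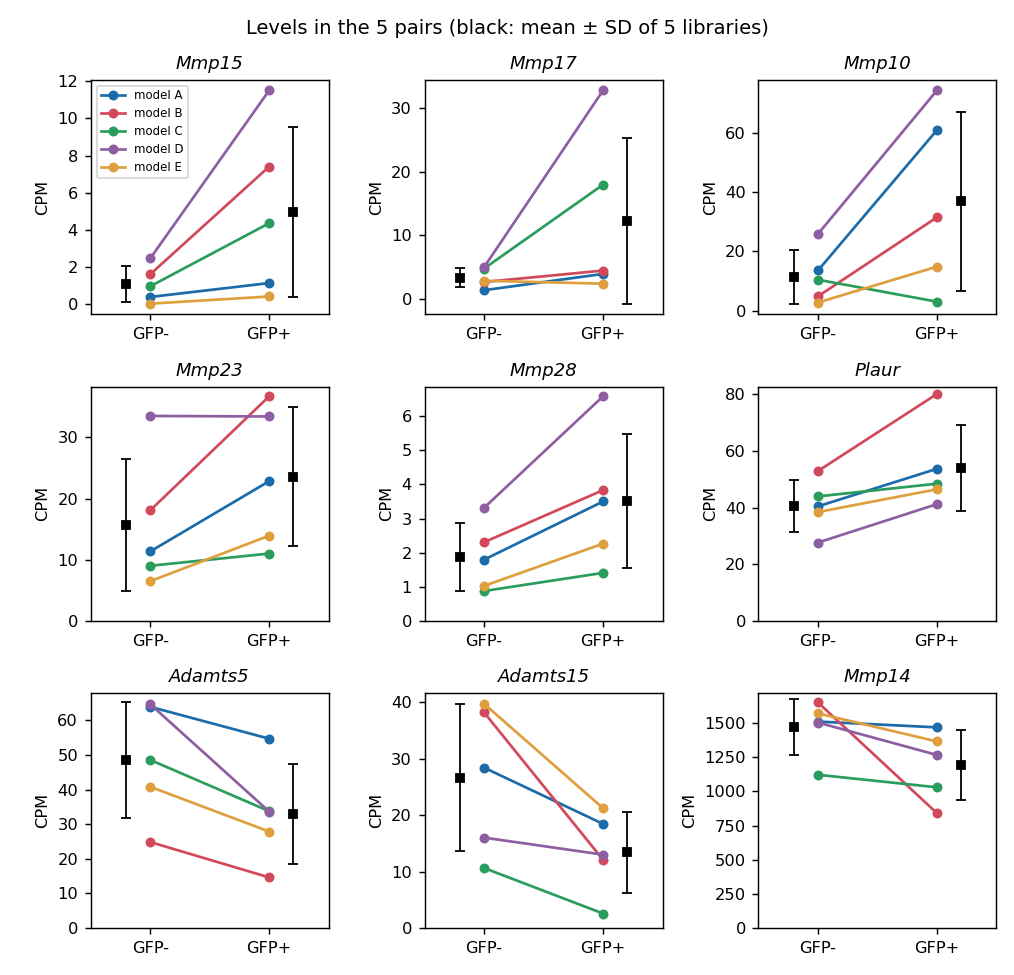
CPM of the 9 genes with an unadjusted p under 0.05 or a common direction in 5 of 5 pairs; coloured lines join the GFP- and GFP+ library of a model and black squares are the mean ± SD of 5 libraries. Lines of Mmp15, Mmp28 and Plaur all slope up to the right and those of Adamts5, Adamts15 and Mmp14 all slope down, while the models start from different levels.

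The inhibitors had no common direction between the populations. Timp2, which blocks most MMPs and takes part in the activation of Mmp2, stood at 1664, 1821, 1984, 1315 and 858 CPM in the GFP+ libraries of models A to E and 1185, 2926, 2232, 2182 and 676 CPM in the GFP- libraries. It was higher in GFP+ cells in pairs A and E and lower in B, C and D (log2 difference -0.18, SE 0.22, adjusted p = 0.856). Without pair D the log2 difference of Timp2 was -0.029. Timp1, a secreted inhibitor, stood at 135, 177, 179, 166 and 119 CPM in GFP+ cells (A to E) and 148, 181, 176, 153 and 101 CPM in GFP- cells. Pairs A and B were slightly lower in GFP+ cells, D and E slightly higher, and pair C level. Its log2 difference was 0.01 (SE 0.08, adjusted p = 0.985). Timp3, which binds the matrix and also blocks ADAMTS enzymes, stood at 1165, 1851, 275, 1201 and 924 CPM in the GFP+ libraries of models A to E and 664, 4375, 485, 1381 and 501 CPM in the GFP- libraries. The GFP- library of model B held more than any other library, and the direction was higher in GFP+ cells in pairs A and E and lower in B, C and D. Its log2 difference was -0.14 (SE 0.34, adjusted p = 0.944) and changed sign without pair B (0.15) or pair C (0.04). Reck, a GPI-anchored inhibitor of MMPs, stood at 22.2, 18.7, 19.1, 19.5 and 16.5 CPM in GFP+ cells (A to E) and 18.4, 30.5, 18.6, 26.0 and 21.3 CPM in GFP- cells. Its populations overlapped, with a log2 difference of -0.27 (SE 0.16, adjusted p = 0.650). Timp4 had 21 reads in all, of which 18 came from the GFP+ library of model B.

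Among the ADAMTS genes that cut proteoglycans, 5 of 6 tested had lower values in GFP+ cells, against 7088 of all 13986 genes. Adamts5 and Adamts15 were lower at an unadjusted p under 0.05, against 3.49% of all genes, and Adamts4 had a higher value. Adamts5 (chr16:85856173-85901828, minus strand), an aggrecanase that also cuts versican, stood at 54.7, 14.6, 33.7, 33.6 and 27.8 CPM in the GFP+ libraries of models A to E and 63.9, 24.8, 48.5, 64.6 and 40.8 CPM in the GFP- libraries. GFP+ cells were lower in every pair, while GFP+ cells of model A exceeded the GFP- cells of B, C and E. Means were 32.9 ± 14.5 (SD, n = 5) for the GFP+ and 48.5 ± 16.7 (SD, n = 5) for the GFP- libraries, in CPM. The log2 difference was -0.63 (SE 0.12; unadjusted p = 0.000811, adjusted p = 0.307), and -0.54 without pair D. Adamts15 (chr9:30899155-30922452, minus strand), another versican-cleaving enzyme, stood at 18.4, 12.1, 2.55, 13.0 and 21.2 CPM in the GFP+ libraries of models A to E and 28.4, 38.2, 10.6, 16.0 and 39.8 CPM in the GFP- libraries. All 5 pairs were lower in GFP+ cells, by a log2 difference from -0.35 in pair D to -2.04 in pair C. The fitted value was -1.10 (SE 0.25; unadjusted p = 0.00272, adjusted p = 0.359), and -1.29 without pair D.

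Adamts1, the most abundant ADAMTS gene per kb, stood at 609, 136, 371, 338 and 645 CPM in the GFP+ libraries of models A to E and 806, 277, 382, 311 and 792 CPM in the GFP- libraries. It was lower in GFP+ cells in 4 of 5 pairs, with models A and E high and model B low in both populations. Fitted, the log2 difference was -0.36 (SE 0.17, adjusted p = 0.583), and -0.46 without pair D. Adamts4, Adamts9 and Adamts20 differed by 0.16 (SE 0.17), -0.18 (SE 0.26) and -0.47 (SE 0.32). Adamts8 did not exceed 1.92 CPM.

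The 3 procollagen N-propeptidases, which trim the amino ends of fibrillar procollagens, all had fitted values above 0, as did 6898 of all 13986 genes. None passed an unadjusted p of 0.05. In 3 of 5 pairs Adamts2 and Adamts3 stood lower in GFP+ cells, with their highest pair differences in pair A (1.01) and pair B (1.72). Adamts14 differed by 0.47 (SE 0.22), Adamts3 by 0.30 (SE 0.30) and Adamts2 by 0.19 (SE 0.20). Their levels ranged from 27.9 CPM for Adamts3 in GFP+ cells to 263 CPM for Adamts2 in GFP- cells, both of model D. Of the 5 tested genes among the other ADAMTS, 1 had a higher value in GFP+ cells (Adamts7), with 0 at an unadjusted p under 0.05. The other 4 had a lower one (Adamts6, Adamts10, Adamts12 and Adamts17), against 7088 of all 13986 genes. Adamts10, which is linked to fibrillin microfibrils, stood at 167, 129, 56.8, 133 and 89.1 CPM in GFP+ cells (A to E) and 162, 154, 50.4, 209.8 and 83.4 CPM in GFP- cells. Pair D differed most, with less in GFP+ cells. Over all pairs the fit gave a log2 difference of -0.15 (SE 0.14, adjusted p = 0.784), and -0.013 without pair D. Adamts12 stood at 43.0, 99.8, 5.11, 44.9 and 27.7 CPM in GFP+ cells (A to E) and 32.3, 159.5, 4.68, 74.2 and 34.2 CPM in GFP- cells. Model B was high and model C low in both populations, and GFP+ and GFP- cells differed by -0.29 (SE 0.18, adjusted p = 0.678). Adamts16, Adamts18 and Adamts19 had their highest values, 5.13, 2.88 and 1.13 CPM, in the GFP- library of model D.

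In the plasminogen system, Plaur, the receptor that holds urokinase at the cell surface, had higher values in GFP+ cells in every pair. It stood at 53.6, 80.0, 48.4, 41.2 and 46.4 CPM in the GFP+ libraries of models A to E and 40.4, 52.8, 43.9, 27.7 and 38.4 CPM in the GFP- libraries. The step was small against the spread of models, so that populations overlapped. Its log2 difference was 0.37 (SE 0.09; unadjusted p = 0.00327, adjusted p = 0.363), and 0.33 without pair D. Plau, its ligand, stood at 58.0, 39.2, 5.00, 48.7 and 52.3 CPM in GFP+ cells (A to E) and 48.3, 30.5, 6.71, 41.0 and 20.1 CPM in GFP- cells. GFP+ cells were higher in 4 of 5 pairs and both libraries of model C were low (log2 difference 0.36, SE 0.23, adjusted p = 0.680). Plat stood at 222, 268, 106, 211 and 200.2 CPM in GFP+ cells (A to E) and 142, 302, 119, 189 and 200.0 CPM in GFP- cells. No common direction appeared, with a log2 difference of 0.06 (SE 0.13, adjusted p = 0.938). Serpine2 (protease nexin 1), which inhibits plasminogen activators and thrombin, differed by -0.47 (SE 0.29) with 3 of 5 pairs lower in GFP+ cells.

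Most of the protease genes differed in level between the 5 models, as did most of all genes tested. The models that were high or low changed from gene to gene. In edgeR's quasi-likelihood test of the 4 model coefficients, 25 of the 35 tested genes had an adjusted p under 0.05, against 54.7% of all genes. The exceptions were Reck, Mmp14, Mmp10, Mmp11, Mmp19, Adamts3, Adamts6, Adamts9, Adamts14 and Adamts20. The 2 libraries of a model come from that model's cells, so this test sets models against the spread that is left after model and population, and says nothing of other tumours of a model. The median range between model means was 1.68 on the log2 scale for the 35 genes and 0.94 for all genes. It exceeded the largest pair difference in 29 of the 35 and in 11530 of 13986 genes, shares that are nearly the same. Without the population term 19 of the 35 passed, about the share of all genes (53.9%). Without model D, 24 of 35 genes passed, against 50.6% of all genes, and without model C 16 of 37, against 28.6%.

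Mmp9 had the smallest p between models (adjusted p = 0.000671 in edgeR's quasi-likelihood test), with a range of 4.73 on the log2 scale from model A, at a mean of 97.0 CPM, to model E, at 3.63 CPM. Adamts12 followed (adjusted p = 0.000685), from 129.7 CPM in model B to 4.89 CPM in model C. Mmp16 (adjusted p = 0.00130) ran from 80.4 CPM in B to 14.8 CPM in C. Mmp15 differed between models too (adjusted p = 0.00184), from 6.98 CPM in D to 0.193 CPM in E. Adamts5 (adjusted p = 0.00367) was highest in A at 59.3 CPM and lowest in B at 19.7 CPM, and Adamts10 (adjusted p = 0.00395) ran from 172 CPM in D to 53.6 CPM in C. Without the population term in the fit, the adjusted p of Mmp15 was 0.0625 and that of Adamts5 0.0616, and without model C that of Adamts10 was 0.0539.

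Model C had the lowest mean for 18 of the 35 genes, against 26.5% of all genes tested, and among them were Timp3, Plau, Serpine2, Mmp16, Adamts10 and Adamts12. Model B had the highest mean for 12 (20.7% of all genes), including Timp2, Timp3, Reck and Plat, and model D for 11 (14.6% of all genes), including Mmp2, Mmp3, Mmp10, Mmp13, Mmp15 and Mmp17. Model E had the lowest mean for 9 (21.1% of all genes), including Timp1, Timp2, Mmp3, Mmp9 and Mmp13. Not all of these places go with a difference that passed between models. In edgeR's quasi-likelihood test over all models Mmp10 (adjusted p = 0.107) and Reck did not pass. Without model D, Mmp2 (adjusted p = 0.0771) and Mmp13 did not pass either. Without model C, among those that no longer passed were Timp1, Timp2, Timp3, Plat and Serpine2. Leaving out model E had that effect on Timp1 (adjusted p = 0.122 in the same test), Timp2 (0.377) and Mmp2 (0.0770). Leaving out model B had it on Timp3 (adjusted p = 0.0527). Plau stood at 5.00 and 6.71 CPM in model C against 20.1 to 58.0 CPM in the other models (adjusted p between models = 0.00473), but without model C its adjusted p was 0.301. Mmp14 and Reck varied least among the named genes, by 0.48 and 0.33 on the log2 scale (adjusted p = 0.397 and 0.605).

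**Figure D4:**
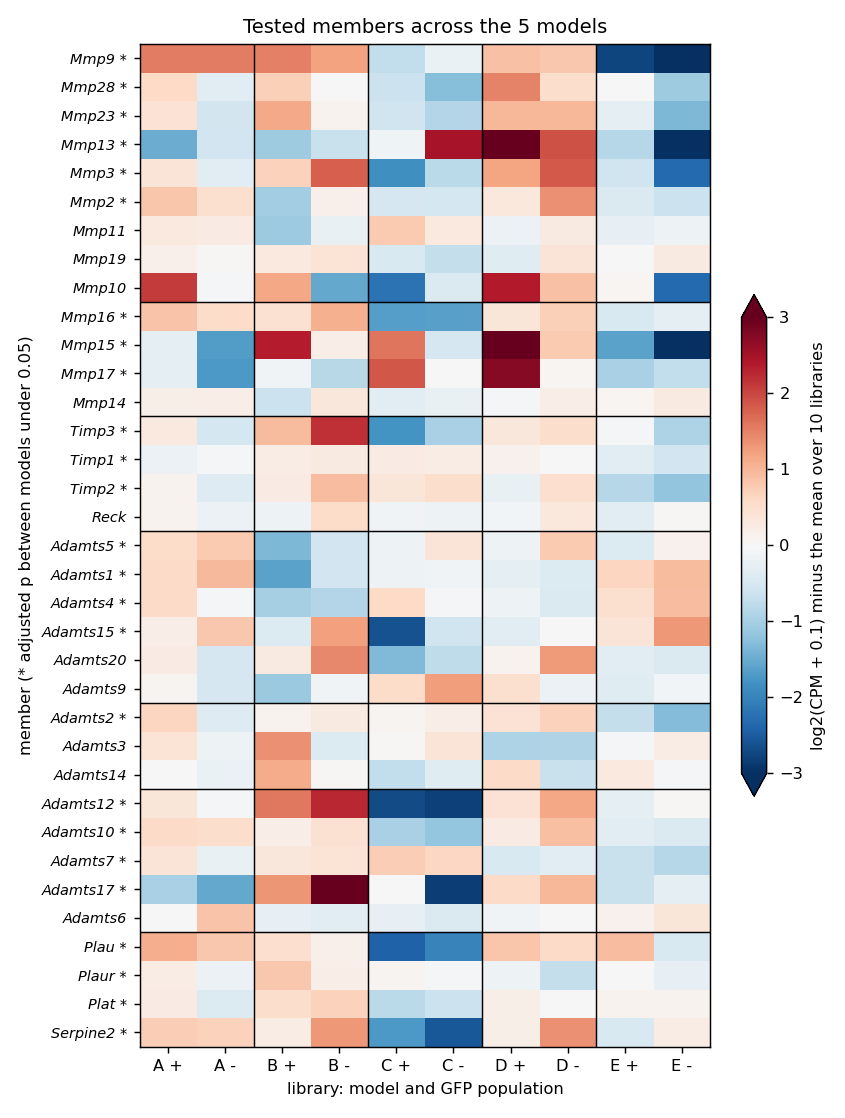
Log2(CPM + 0.1) of the 35 tested genes minus each gene's mean over 10 libraries, by model and GFP population (red above, blue below the mean; asterisks mark an adjusted p between models under 0.05). Both columns of model C are blue for Plau, Mmp16 and Adamts12, and both columns of model E for Mmp9.

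Several of these genes lie side by side in the mouse genome (GRCm38, GENCODE vM21). A run of 10 Mmp genes, 3 of them among the 41 (Mmp13, Mmp3 and Mmp10), spans chr9:7272514-7699585, and 4 of the 10 passed the filter on low counts: these 3 and Mmp12, the macrophage elastase. All 4 were lower in GFP+ cells in pair C and higher in pair E, and in pairs A, B and D their directions differed. Adamts1 and Adamts5 are separated by 53.06 kb on chromosome 16 and both had lower fitted values in GFP+ cells. Adamts15 and Adamts8 lie 20.11 kb apart on chromosome 9 on opposite strands, and Adamts8 was near 0. Timp1, Timp3 and Timp4 lie inside the synapsin genes Syn1, Syn3 and Syn2 on the opposite strand, and these hosts held at most 7.79, 0.877 and 1.36 CPM in the strand-specific counts.

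Related genes were followed as 7 lists of neighbouring families. Of 9 other MMPs, 1 passed the filter, Mmp12, at a log2 difference of 1.96 (SE 0.65, unadjusted p = 0.0181, adjusted p = 0.461 in edgeR's quasi-likelihood test), higher in GFP+ cells in 4 of 5 pairs. Of 8 tested ADAM proteases, the membrane-anchored relatives of ADAMTS enzymes, 5 had higher and 3 lower values, against 6898 and 7088 of all 13986 genes. Of the 8, 1 had an unadjusted p under 0.05, against 8.99% of all genes. It was Adam12, higher in 5 of 5 pairs by 0.74 (SE 0.19, unadjusted p = 0.00538, adjusted p = 0.379 in the same test). In the lists of ADAMTS-like proteins (5 tested), of the rest of the plasminogen system (5), of activators and clearance receptors of metalloproteases (6), of astacin proteases and their enhancers (4) and of cysteine cathepsins with cystatin C (4), 0 genes had an unadjusted p under 0.05. Between models, against 54.7% of all genes, an adjusted p under 0.05 was found for Mmp12, 7 of the 8 ADAM genes, 4 of 5 ADAMTS-like genes, 4 of 4 astacin genes, 4 of 6 activators and clearance receptors, 2 of 4 cathepsin genes and 1 of 5 genes of the plasminogen system. Lrp1, the endocytic receptor that clears MMPs and plasminogen activators, was the most abundant of the activators and clearance receptors at 1776 to 5957 CPM.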

How the data were processed

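The authors deposited raw read counts per gene, not normalized, for 10 libraries, 5 of GFP+ and 5 of GFP- cells. Per the submitters' processing notes, the reads were handled with STAR (2.4.2.8) on build mm10. The annotation and the strand setting of the kit are not stated there or in the labels. The tables follow STAR's count format, and the column for the second strand setting was read because it took 96.9% to 97.1% of the stranded reads. The 4 summary lines (21.3% to 24.3% of reads) were left out. Reads with several positions (5.99% to 9.74%) are not in the gene counts, so near-identical genes are counted low. GENCODE vM21 gave symbols, coordinates and union exon lengths for 46005 of 46517 identifiers.

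CPM was computed from the gene totals. The main test was a two-sided quasi-likelihood test in edgeR 4.0.16 (R 4.3.3). It used the model as a block, filterByExpr to drop low genes (13986 kept) and TMM scaling, as the series' design text states a paired comparison, with Benjamini-Hochberg adjustment over all genes tested at 0.05. The test between models used the same fit. The biological coefficient of variation was 0.196. Pair differences are log2 CPM with TMM scaling and prior count 2. The letters pair the libraries because same-lettered libraries come from the same model, and the correlation within pairs of deviations from each population's mean was 0.628 to 0.867. Alternatives were no replicate block, no population term between models, RLE size factors, library totals, 2 other filters, DESeq2 1.42.0, robust quasi-likelihood, edgeR's likelihood-ratio test, unstranded counts and leaving out each pair.

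The genes, lists and rules were chosen with earlier results of these data known. Values in every library are given for genes with an unadjusted p under 0.05 or 5 of 5 pairs in 1 direction, the 6 highest per kb, the 6 smallest p between models, and Mmp15, Mmp14, Timp1, Timp3, Reck, Plat and Plau (21 genes in all). Of each related list, the 2 genes with the smallest p and the most abundant one could be named.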

Additional observations from a re-analysis of the deposited data

Results flagged for a closer look

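Among the 42 groups of 5 libraries behind the genes given in every library (21 genes in each population), 2 held a library far from the other 4 by Dixon's test at the 95% level. Chance alone picks out about 1 in 20 such groups. Mmp14 in the GFP- library of model C stood at 1122 CPM, below the 1505 to 1652 CPM of the other GFP- libraries, a gap of 0.722 of the range of the group. Timp3 in the GFP- library of model B stood at 4375 CPM, above the 485 to 1381 CPM of the other GFP- libraries, a gap of 0.770 of the range.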

How the results depend on the processing

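Between GFP+ and GFP- cells, the count of all genes with an adjusted p under 0.05 was 0 in the main test and 47 without the filter on low counts, 195 with DESeq2 and 206 with the edgeR likelihood-ratio test. It was 0 without each pair in turn. The cause of these differences was not tested. Of the 35 protease genes, 8 had an unadjusted p under 0.05, and 1 without the replicate block (Mmp17), where the spread between models enters the error. Leaving out each pair gave 7 to 12, of 37 tested without pair A or C and of 35 otherwise. The median log2 difference of the protease genes, -0.14, ranged from -0.20 to 0.022 over the left-out pairs and was above 0 without pair B or pair C. Genes with 1 direction in every pair numbered 6: 3 higher, against 5.11% of all genes, and 3 lower, against 4.66%. With 4 pairs they numbered 6 to 10. No share over all genes was computed for 4 pairs, where 1 direction in every pair is easier to reach. This count was added after seeing the data. Between models, 7655 genes passed, and 4038 (without C) to 7545 (without A) with 4 models. Of the protease genes 25 of 35 passed, and 16 of 37 (without C) to 27 of 37 (without A).

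For the 21 named genes, 277 of 294 alternative values of the population difference kept direction and side of the threshold, 9 (in 5 genes) newly passed it and 8 (in 4 genes) changed sign. The 4 were close to 0. Timp1, at 0.011, was -0.0019 without the replicate block and -0.0052 without the filter, and -0.063 to 0.049 over the left-out pairs. Mmp9 ranged from -0.098 to 0.24, Timp3 from -0.43 to 0.15 and Plat from -0.085 to 0.14 over the left-out pairs. Between models, 270 of 294 values stayed on their side, 3 (1 gene) newly passed and 21 (13 genes) no longer did. Genes at a few reads, such as Mmp15 in models A and E, are limited by depth. The 6 genes under the filter were not in the main test. Without the filter Adamts18 was lower in GFP+ cells at an unadjusted p under 0.05, against 2.83% of 25762 genes. Adamts8, Adamts16 and Adamts18 then passed between models, against 31.9% of these genes. They had at most 35, 82 and 46 reads in 1 library. Between models without the population term, 19 of the 35 protease genes passed, against 53.9% of all genes.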
